A study of Mus musculus with 2 samples.

Results

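The enzymes and transport proteins described here make, activate or inactivate steroid hormones inside the tissues that respond to them. They are 10 genes taken by symbol from a list: Star, Cyp11a1, Hsd11b1, Hsd11b2, Cyp19a1, Hsd17b1, Hsd17b2, Hsd17b11, Srd5a1 and Akr1c18. All 10 were present among the 43346 genes of both gene tables, with 22 annotated transcripts between them in the transcript tables. RNA had been sequenced in 2 libraries of mouse mammary gland, a tissue of epithelial ducts embedded in a fat pad. The mice were C57BL/6J adults aged 8 weeks, and each library came from male and female littermates mixed together, in a number the labels do not give. Per the labels, poly(A) RNA of more than 200 nt, depleted of rRNA and carrying added spike-ins, was read from both ends at 76 nt with its strand kept. Both libraries belong to 1 group as biological replicates with the same donor entry, and nothing says that separate animals were used. No treatment, genotype or stage was contrasted, so no test between groups was possible and the only spread that could be measured was that between the libraries.

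Steroid hormones begin as cholesterol, which StAR carries into mitochondria and the side-chain cleavage enzyme Cyp11a1 turns into pregnenolone. Glands such as the adrenal cortex and the gonads carry out that first part, while many other tissues adjust the hormones that reach them. Hsd11b1 regenerates active glucocorticoids and Hsd11b2 inactivates them, aromatase (Cyp19a1) makes oestrogens from androgens, and dehydrogenases and reductases of the Hsd17b, Srd5a and Akr1c families shift oestrogens, androgens and progesterone between strong and weak forms.

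Sequence around annotated starts is shown for the genes that the results turn on. The RefSeq table on GRCm38.p6, the same build as mm10, held windows of 300 bases for 6 of the 10 genes, each running from 250 bases before a start to 50 after it. Cyp19a1 had 3 such windows, Cyp11a1 had 2, and Hsd11b1, Hsd17b11, Srd5a1 and Akr1c18 had 1 each. No window was matched for Star, Hsd11b2, Hsd17b1 or Hsd17b2. Each window was searched on both strands for 4 short motifs. The CCAAT box was present in 37.4% of all 32851 windows. A TATA box, searched as TATAAA, was present in 13.6% of them. The half-site of many nuclear receptors, searched as AGGTCA, was present in 16.3%. The GC box, searched as GGGCGG, was present in 35.7%. Printed 5′ to 3′ on the gene's strand, with matches in capitals, are Akr1c18 (chr13:4150597-4150896, minus strand), the gene with a mean of at least 1 TPM whose count interval lay beyond 2-fold, Srd5a1 (chr13:69611414-69611713, minus strand), and the Cyp19a1 window nearest to its counted transcript (chr9:54193694-54193993, minus strand), a gene with no fragment.
Akr1c18: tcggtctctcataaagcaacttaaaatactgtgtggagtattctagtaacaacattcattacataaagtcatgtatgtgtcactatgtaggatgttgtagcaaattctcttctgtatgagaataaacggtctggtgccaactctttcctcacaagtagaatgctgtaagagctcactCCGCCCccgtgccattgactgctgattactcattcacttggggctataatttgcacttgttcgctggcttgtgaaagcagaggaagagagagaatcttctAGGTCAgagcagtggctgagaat
Srd5a1: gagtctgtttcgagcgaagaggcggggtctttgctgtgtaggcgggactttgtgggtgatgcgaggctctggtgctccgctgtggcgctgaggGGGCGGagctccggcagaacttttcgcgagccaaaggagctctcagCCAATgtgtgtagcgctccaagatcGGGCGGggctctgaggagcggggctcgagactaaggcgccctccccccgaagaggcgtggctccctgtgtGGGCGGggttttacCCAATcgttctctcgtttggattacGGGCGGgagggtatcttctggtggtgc
Cyp19a1: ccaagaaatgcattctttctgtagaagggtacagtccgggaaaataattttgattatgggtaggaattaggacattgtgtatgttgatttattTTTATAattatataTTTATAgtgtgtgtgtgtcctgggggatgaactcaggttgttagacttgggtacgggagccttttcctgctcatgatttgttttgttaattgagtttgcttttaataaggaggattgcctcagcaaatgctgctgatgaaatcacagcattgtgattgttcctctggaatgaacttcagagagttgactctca

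The Akr1c18 window held AGGTCA once, starting 28 bases after the start, and a GC box on the opposite strand starting 73 bases before it. The Srd5a1 window held CCAAT 2 times and the GC box 4 times, and its GC content of 63.0% lay above that of 77.8% of all windows. The Cyp19a1 window held TATAAA 2 times on the opposite strand, at 157 and 143 bases before the start, and its GC content was 37.7% against a median of 52.7% over all windows. Its RefSeq start lay 301 bases upstream of the first base of the transcript in the tables. For Hsd11b1, the most abundant of the 10, all 300 bases of the window fell inside an annotated exon, since transcript Hsd11b1-201 begins 269 bases before the RefSeq start. A stretch of 30 bases around its CCAAT, which starts 72 bases before the RefSeq start, is therefore shown (chr1:193242415-193242444, minus strand).
Hsd11b1: tcccacccaaagCCAATcgttgctctgaca
A match describes these letters only, and binding was not measured.

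Summed expected counts over genes, which are the fragments assigned by the authors, came to 56323489 in replicate 1 and 42400470 in replicate 2. Levels are given in TPM, which are scaled for transcript length and for the total of each library. Markers of the labelled tissue were present: each of 6 adipocyte and 6 luminal epithelial genes exceeded 1 TPM in both libraries, with summed levels of 17400 TPM and 890.5 TPM in replicate 1 and of 33250 TPM and 1678 TPM in replicate 2. Cfd made up most of the adipocyte sum, with 13596 TPM in replicate 1 and 29051 TPM in replicate 2. Plin1 and Cidec were also higher in replicate 2, while Adipoq, Lep and Retn were higher in replicate 1. The libraries differed in other tissues' RNA: 6 skeletal muscle markers summed to 27100 TPM in replicate 1 and 12.2 TPM in replicate 2, 4 keratinocyte markers to 79.5 TPM in replicate 1 and 5.36 TPM in replicate 2, and 4 liver markers to 18.8 TPM in replicate 1 and 207.1 TPM in replicate 2. Brown adipocyte markers summed to 1593 TPM in replicate 1 and 521.5 TPM in replicate 2, and sebocyte markers to 24.7 TPM in replicate 1 and 4.98 TPM in replicate 2. Fibroblast markers summed to 1789 TPM in replicate 1 and 1315 TPM in replicate 2. Of these, Dcn, Lum and Pdgfra were higher in replicate 1, while Col1a1 and Col1a2 were higher in replicate 2. The mitochondrial share of TPM was 17.8% in replicate 1 and 4.34% in replicate 2. In bulk tissue, fewer cells of a type and less RNA per cell cannot be told apart.

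Of the 10 genes, 4 reached 1 TPM in both libraries, namely Hsd11b1, Hsd17b11, Akr1c18 and Srd5a1, where 58.3% of 21474 protein-coding genes did. Together the 10 summed to 162.8 TPM in replicate 1 and 118.3 TPM in replicate 2. Hsd11b1 alone was 78.8% of that sum in replicate 1 and 74.8% in replicate 2, and with Hsd17b11 the share was 92.0% in replicate 1 and 91.5% in replicate 2. In the order of mean TPM the genes ran Hsd11b1, Hsd17b11, Akr1c18, Srd5a1, Cyp11a1, Hsd11b2, Hsd17b1, Star, Hsd17b2 and Cyp19a1. The top 4 held the same rank in both libraries. Of the 9 neighbouring pairs in that order, 6 had ranges over the libraries that did not overlap, while Cyp11a1 and Hsd11b2, Hsd11b2 and Hsd17b1, and Hsd17b1 and Star overlapped.

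**Figure D1:**
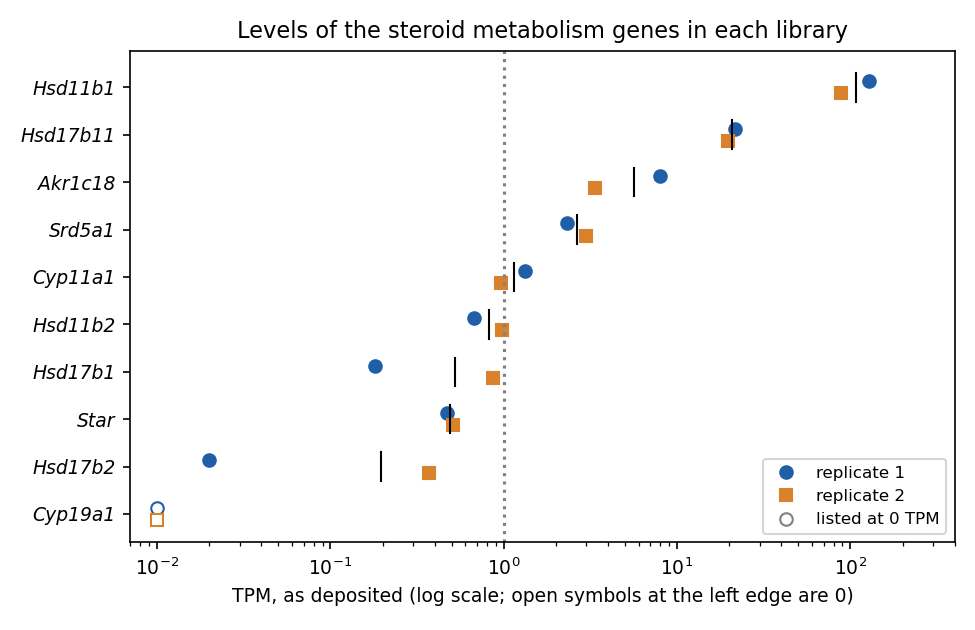
Level of each of the 10 genes in TPM on a log axis, with replicate 1 as blue circles, replicate 2 as orange squares, the mean as a black bar and 1 TPM as a dotted line. Hsd11b1 stands highest in both libraries, 4 genes lie right of the line in both, and the open symbols of Cyp19a1 stand for 0 TPM.

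The entry to steroid synthesis was at low levels. Star (chromosome 8, 25806555-25815982, plus strand, mm10) moves cholesterol to the inner mitochondrial membrane, the step that limits acute steroid output. It had 0.47 TPM in replicate 1 and 0.51 TPM in replicate 2, from 52 and 40 fragments, a mean of 0.49 ± 0.03 TPM (SD, n = 2). Both values were under 1 TPM and close to each other. Cyp11a1 (chromosome 9, 58006411-58027023, plus strand), the side-chain cleavage enzyme, had 1.32 TPM in replicate 1 and 0.97 TPM in replicate 2, from 99 and 62 fragments, a mean of 1.15 ± 0.25 TPM (SD, n = 2). Scaled by total counts, replicate 1 over replicate 2 was 0.27 on the log2 scale, with a 95% Clopper-Pearson interval from -0.21 to 0.75 that includes equality. Intervals of this kind cover counting error only, not the spread between animals. Transcript Cyp11a1-201, the coding transcript in the consensus set, held 79.9% of the gene's fragments in replicate 1 and 79.7% in replicate 2, and a retained-intron transcript, Cyp11a1-204, held 12.5% and 20.3%. By TPM, Cyp11a1-201 held 72.6% in replicate 1 and 86.9% in replicate 2, or 0.96 TPM and 0.84 TPM, under 1 TPM in both. Cyp11a1-203, of 848 nt and with its 3′ end not found, held 20.7% of the TPM in replicate 1 and 0% in replicate 2. Cyp11a1 shares 145 exonic bases with Gm17322 on the same strand, a gene with 0.04 TPM in replicate 1 and 0.05 TPM in replicate 2.

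Hsd11b1 (chromosome 1, 193221634-193264075, minus strand) is a reductase of the endoplasmic reticulum that turns inert keto-glucocorticoids back into active hormone, and is well known from fat and liver. It had 128 TPM in replicate 1 and 88.4 TPM in replicate 2, from 4805 and 2310 fragments, a mean of 108.4 ± 28.2 TPM (SD, n = 2). It stood above 95.9% of protein-coding genes in replicate 1 and above 92.1% in replicate 2. Scaled by total counts, replicate 1 was 1.57-fold higher, with a log2 ratio of 0.65 (95% interval 0.58 to 0.72), which lies within 2-fold. Scaled by the spike-in totals the log2 difference was -0.12, and after subtracting the median difference of genes of like GC content it was 0.11, so the spike-in scaling turned the direction.

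Hsd11b2 (chromosome 8, 105518755-105523988, plus strand), the enzyme that inactivates glucocorticoids and shields the mineralocorticoid receptor from them, had 0.67 TPM in replicate 1 and 0.98 TPM in replicate 2. It rested on 47 and 49 fragments, with a mean of 0.83 ± 0.22 TPM (SD, n = 2), and its log2 count ratio was -0.47 (95% interval -1.08 to 0.14). Hsd11b1 was 192.0 times Hsd11b2 by TPM in replicate 1 and 90.2 times in replicate 2, so the reductase was the higher transcript in both libraries. The size of these ratios rests on an effective length for Hsd11b1 of 868 bases in replicate 1 and 850 bases in replicate 2. That length depends on how fragments were divided over its transcripts, described below. H6pd, which supplies the reducing cofactor to Hsd11b1 in the same compartment, had 84.8 TPM in replicate 1 and 116 TPM in replicate 2, and the ratio of Hsd11b1 to H6pd was 1.51 in replicate 1 and 0.76 in replicate 2. Those ratios fell on opposite sides of 1.

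The gene's 7 annotated transcripts differ in where they begin. Hsd11b1-201, of 1623 nt with a full coding sequence in the consensus set, begins at base 193242629. Hsd11b1-202, of 836 nt, begins 932 bases upstream of that and has an annotated coding sequence of 642 nt whose 3′ end was not found. Hsd11b1-203, of 1256 nt, begins 1031 bases downstream, inside the gene, and has 786 nt of coding sequence against 876 nt for Hsd11b1-201. Hsd11b1-205, also with 876 nt of coding sequence, begins 21446 bases upstream.

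By TPM, Hsd11b1-202 was the leading transcript, with 60.3 TPM in replicate 1 and 44.0 TPM in replicate 2, or 47.0% and 49.8% of the gene. Hsd11b1-203 followed with 56.5 TPM in replicate 1 and 34.2 TPM in replicate 2, or 44.0% and 38.7%. By fragments the order was the other way in both libraries: Hsd11b1-203 held 53.1% of the gene's fragments in replicate 1 and 47.5% in replicate 2, and Hsd11b1-202 held 33.9% and 36.4%. The transcripts differ in length, which enters TPM and not the fragment share. The 2 transcripts with a coding sequence in the consensus set, Hsd11b1-201 and Hsd11b1-205, held together 7.43% of the gene's TPM in replicate 1 and 8.32% in replicate 2, and 12.0% and 13.5% of its fragments. Hsd11b1-205, the far upstream start, took 0.33% of the TPM in replicate 1 and 1.08% in replicate 2. Hsd11b1-201 and Hsd11b1-205 together had 9.53 TPM in replicate 1 and 7.35 TPM in replicate 2. How the authors' quantifier divided fragments over exons that these transcripts share was not tested. The TPM of Hsd11b1, its share of the summed TPM and its ratios to other genes all rest on that division.

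**Figure D2:**
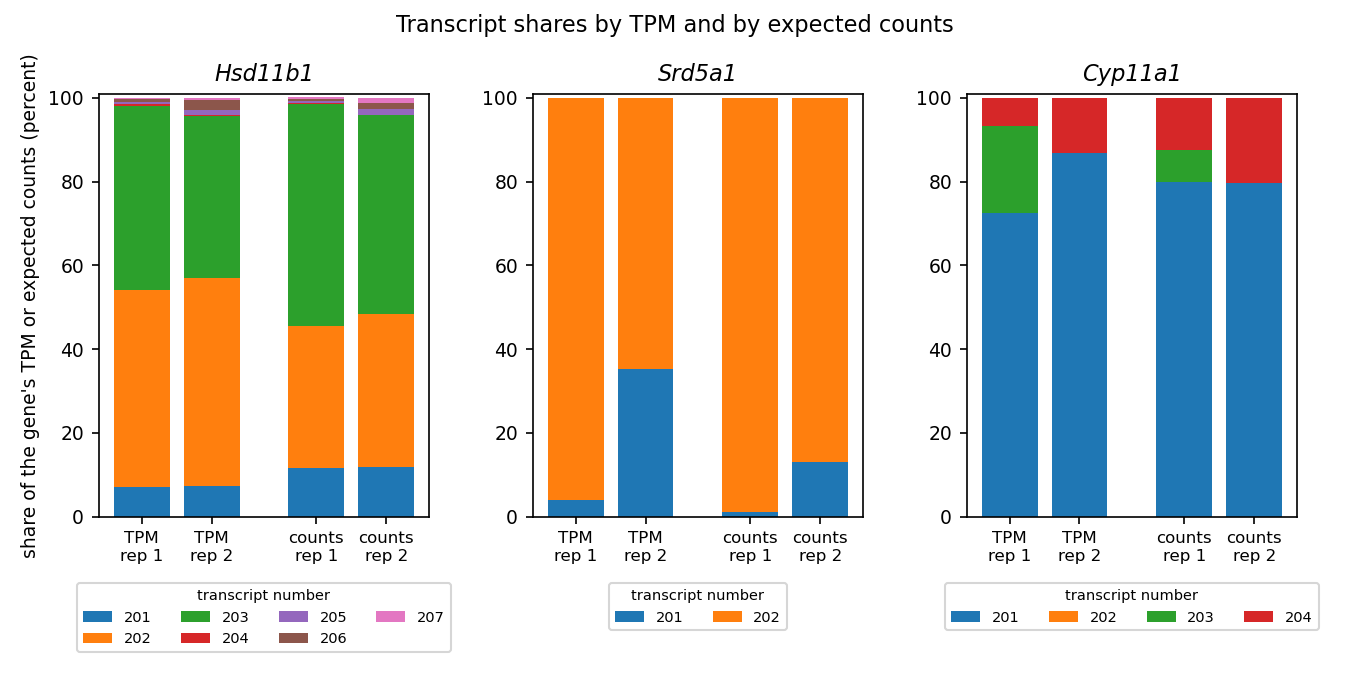
Share in percent of each gene's TPM (left pair of bars) and expected counts (right pair) taken by its annotated transcripts in replicate 1 and replicate 2, for Hsd11b1, Srd5a1 and Cyp11a1. Hsd11b1-202 and Hsd11b1-203 fill 91.0% and 88.5% of Hsd11b1 TPM, and Srd5a1-201 is wider in replicate 2, at 35.2% of TPM against 4.01% in replicate 1.

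Aromatase was not detected. Cyp19a1 (chromosome 9, 54165937-54268110, minus strand) had 0 fragments in both libraries, so at this depth a level of up to 0.03 TPM in replicate 1 and 0.05 TPM in replicate 2, the value of 3 fragments, could have been missed. Hsd17b1 (chromosome 11, 101078411-101080527, plus strand), which reduces oestrone to oestradiol, had 0.18 TPM in replicate 1 and 0.87 TPM in replicate 2, from 9 and 30 fragments, a mean of 0.53 ± 0.49 TPM (SD, n = 2). Hsd17b2 (chromosome 8, 117701904-117759027, plus strand), which oxidises oestradiol and testosterone to weaker forms, had 0.02 TPM in replicate 1 and 0.37 TPM in replicate 2, from 1 and 12 fragments. Both were higher in replicate 2 by count, Hsd17b1 with a log2 ratio of replicate 1 over replicate 2 of -2.15 (95% interval -3.41 to -1.03) and Hsd17b2 with -4.00 (95% interval -9.41 to -1.24). Both means were under 1 TPM. The liver markers Alb, Apoa2, Ttr and Serpina1a, from an organ known for Hsd17b2, were also higher in replicate 2, at the sums given above, and their part in the Hsd17b2 difference was not tested.

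Hsd17b11 (chromosome 5, 103989762-104021919, minus strand), a dehydrogenase found on lipid droplets that can oxidise androgen metabolites, was the other abundant gene. It had 21.5 TPM in replicate 1 and 19.8 TPM in replicate 2, from 1507 and 986 fragments, a mean of 20.6 ± 1.20 TPM (SD, n = 2), above 76.8% and 73.7% of protein-coding genes. The log2 count ratio was 0.20 (95% interval 0.09 to 0.32) by total counts and changed sign under spike-in scaling, where the difference was -0.54, and after subtraction of the GC trend, at -0.22. Hsd17b11-201, the full coding transcript, held 97.1% of the gene's TPM in replicate 1 and 97.6% in replicate 2. Hsd11b1 was 5.97 times Hsd17b11 in replicate 1 and 4.47 times in replicate 2.

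Srd5a1 (chromosome 13, 69573449-69611442, minus strand) reduces testosterone and progesterone, in the case of testosterone to a stronger androgen. It had 2.33 TPM in replicate 1 and 2.99 TPM in replicate 2, a mean of 2.66 ± 0.47 TPM (SD, n = 2), so the level was higher in replicate 2. Its expected counts, 237 and 167, gave the opposite order once scaled by total counts, with a log2 ratio of 0.10 (95% interval -0.20 to 0.39) that includes equality. The effective length used for TPM was 2363 bases in replicate 1 and 1812 bases in replicate 2, beside a larger share for the short noncoding transcript Srd5a1-201 in replicate 2. That transcript of 888 nt had 2.73 and 21.8 fragments, while the coding transcript Srd5a1-202 of 2644 nt had 235 and 145, or 2.24 TPM in replicate 1 and 1.94 TPM in replicate 2. Read on the coding transcript alone, the TPM was thus higher in replicate 1. No interval was computed for that transcript. Its level rests on how fragments were divided between the 2 transcripts, which was not tested. Srd5a1 shares 476 exonic bases, 16.4% of its exonic length, with Gm17108 on the same strand, which had 0.14 TPM in replicate 1 and 0.11 TPM in replicate 2. Expected counts were fractional for Srd5a1, at 237.36 in replicate 1 and 166.7 in replicate 2. They were also fractional for Gm17108, at 16.64 and 9.3, so reads of Srd5a1 were divided between genes as well.

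Akr1c18 (chromosome 13, 4132615-4150654, minus strand) inactivates progesterone by reducing it, and in the mouse is best known from the corpus luteum before birth. It had 7.96 TPM in replicate 1 and 3.36 TPM in replicate 2, from 341 and 102 fragments, a mean of 5.66 ± 3.25 TPM (SD, n = 2). By count, replicate 1 was 2.52-fold higher (95% interval 2.01 to 3.17), a log2 ratio of 1.33 with bounds of 1.01 and 1.66. Akr1c18 was the 1 gene of the 5 with a mean of at least 1 TPM whose interval lay wholly beyond 2-fold, where 18.2% of 14510 genes did in either direction and 9.43% with replicate 1 higher. The bound was narrowly passed: with edgeR's TMM factors, DESeq2's size factors or spike-in totals, none of these 5 genes was beyond 2-fold. Akr1c18 nevertheless stayed higher in replicate 1 under all 9 other settings, by 0.45 to 1.22 on the log2 scale. The skeletal muscle, keratinocyte, sebocyte, brown adipocyte, fibroblast, myoepithelial, blood endothelial and mast cell markers had higher sums in the same library. Single markers within the fibroblast, myoepithelial, blood endothelial and mast cell lists went either way. The part of these markers in the Akr1c18 difference was not tested. Without the filter on the mean, 3 of the 9 genes with any fragment were beyond 2-fold, Akr1c18 higher in replicate 1 and Hsd17b1 and Hsd17b2 higher in replicate 2, against 14.9% of 22402 genes in either direction and 6.74% with replicate 2 higher. Hsd17b1 also passed narrowly, with a log2 bound of -1.035. Calls without the filter were made with scaling by total counts only.

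Of the 5 genes that averaged 1 TPM or more, 4 were higher in replicate 1 by log2(TPM + 1). Cyp11a1, 1 of these 4, reached that mean only through replicate 1. Under spike-in scaling Hsd11b1, Hsd17b11 and Cyp11a1 were instead higher in replicate 2. The genes are not replicates, so no shift of the set is drawn from them. Over all 14510 genes the median difference, replicate 1 minus replicate 2, was -0.05, with 47.6% higher in replicate 1. The difference between the libraries varied with base composition: its median was 0.64 among expressed protein-coding genes of the lowest GC content, near 38.9%, and -1.05 among those of the highest, near 61.4%. GC content was 43.3% for Hsd11b1 and 43.9% for Akr1c18, and after subtraction of that trend the Akr1c18 difference was 0.61 in place of 1.04.

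**Figure D3:**
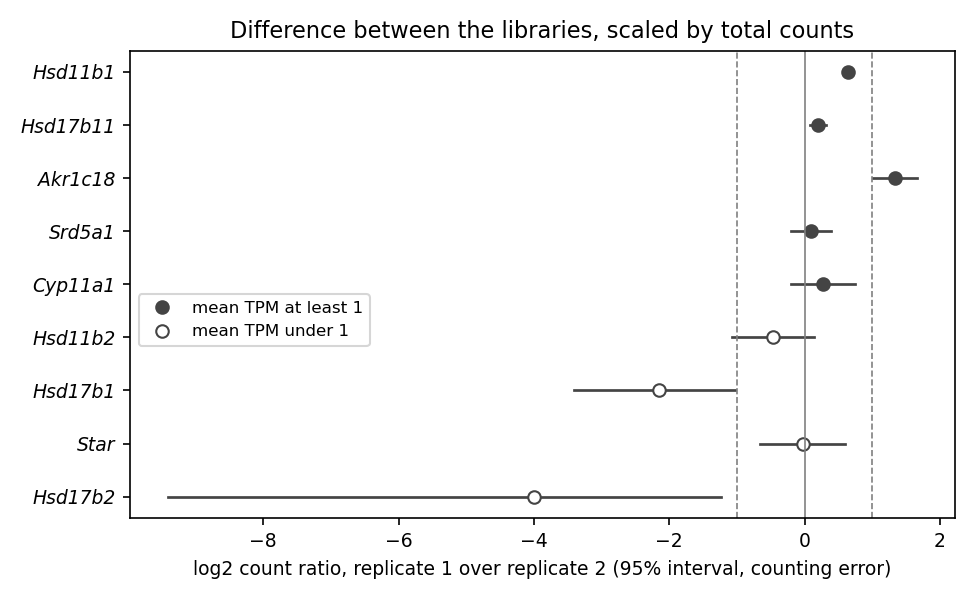
Log2 count ratio of replicate 1 over replicate 2, scaled by total counts, with 95% intervals for counting error; filled circles have a mean of at least 1 TPM and dashed lines mark 2-fold. Akr1c18 alone among the filled circles lies wholly beyond a dashed line, with a lower bound of 1.01, while Hsd17b1 and Hsd17b2 lie on the other side at mean levels under 1 TPM.

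Around these 10, 66 further genes of steroid pathways were listed by function, of which 65 were matched by symbol and Sts was not. At least 1 TPM in both libraries was reached by 38, near the 58.3% of protein-coding genes that did, and 9 had 3 fragments or fewer in both. Of the 40 with a mean of at least 1 TPM, 2 lay beyond 2-fold with replicate 1 higher, Akr1c14 and Dhrs9, and 3 with replicate 2 higher, Hsd17b8, Cyp7b1 and Pgr. Over all genes the shares were 18.2% in either direction and 9.43% with replicate 1 higher. Cyp7b1 and Dhrs9 were named after their values were seen.

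In synthesis from cholesterol, 8 of 18 genes passed 1 TPM in both. They were led by Tspo, an outer mitochondrial membrane protein, with 755 TPM in replicate 1 and 1384 TPM in replicate 2, Por, which feeds electrons to microsomal P450 enzymes, with 258 TPM in replicate 1 and 313 TPM in replicate 2, the cholesterol transporter Stard3 with 65.8 TPM in replicate 1 and 115 TPM in replicate 2, and Fdx1, the electron donor of Cyp11a1, with 23.3 TPM in replicate 1 and 45.8 TPM in replicate 2. All of these leaders serve other pathways as well. Of the remaining 10 genes, Cyp11b1, Nr5a1 and Nr0b1 were at the floor of 3 fragments in both, and Nr5a1 and Nr0b1 are transcription factors that mark adrenal and gonadal steroid cells.

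In glucocorticoid exchange and response, 9 of 10 genes passed 1 TPM in both, beside 58.3% of protein-coding genes. None of the 9 with a mean of at least 1 TPM lay beyond 2-fold, beside 18.2% of all genes. Besides H6pd, the highest were the hormone-responsive genes Tsc22d3 with 57.8 TPM in replicate 1 and 61.2 TPM in replicate 2, Per1 with 22.4 TPM in replicate 1 and 34.1 TPM in replicate 2, and Sgk1 with 29.6 TPM in replicate 1 and 15.6 TPM in replicate 2. The glucocorticoid receptor Nr3c1 had 19.8 TPM in replicate 1 and 18.8 TPM in replicate 2 and the mineralocorticoid receptor Nr3c2 5.54 TPM in replicate 1 and 4.85 TPM in replicate 2, a ratio of 3.58 in replicate 1 and 3.88 in replicate 2. These receptors were named for their role, outside the rule by level.

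Of 14 other genes of oestrogen and androgen exchange, 8 passed 1 TPM in both. Hsd17b8, named H2-Ke6 in the annotation, had 74.6 TPM in replicate 1 and 230.4 TPM in replicate 2, Hsd17b10 88.5 TPM in replicate 1 and 64.9 TPM in replicate 2, and Hsd17b12 62.9 TPM in replicate 1 and 33.6 TPM in replicate 2. The last of these is known mainly from fatty acid elongation. Srd5a3, a relative of Srd5a1 that also serves protein glycosylation, had 38.2 TPM in replicate 1 and 241.5 TPM in replicate 2, yet nearly equal expected counts of 2314 and 2306. The TPM of Srd5a3 was 16.4 times that of Srd5a1 in replicate 1 and 80.8 times in replicate 2, ratios that carry the same limit. Srd5a2 and Hsd17b3, known from the prostate and the testis, had 0 fragments in both.

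For sulfation, oxidation and conjugation, 7 of 11 matched genes passed 1 TPM in both. The phenol sulfotransferase Sult1a1 had 144 TPM in replicate 1 and 119 TPM in replicate 2, Ugt1a6a 37.7 TPM in replicate 1 and 22.7 TPM in replicate 2, and Papss1, which makes the sulfate donor, 23.5 TPM in replicate 1 and 26.2 TPM in replicate 2. Sult1e1, the oestrogen sulfotransferase, had 0 fragments in both. The phenol sulfotransferase was thus present in both libraries while the oestrogen-specific one was not seen.

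Of the 7 relatives of Akr1c18 in the AKR1C family, 2 passed 1 TPM in both. Akr1c14 had 4.32 TPM in replicate 1 and 1.82 TPM in replicate 2, and its log2 count ratio was 1.34 (95% interval 1.06 to 1.63). Akr1c13 had 3.38 TPM in replicate 1 and 1.63 TPM in replicate 2, and its ratio was 1.05 (95% interval 0.58 to 1.55). Both were higher in replicate 1, like Akr1c18. Akr1c6, named after its values were seen, lay the other way, with 0 fragments in replicate 1 and 9 in replicate 2. Akr1c12 had 0.45 TPM in replicate 1 and 0.25 TPM in replicate 2 and Akr1c19 0.35 TPM in replicate 1 and 0.15 TPM in replicate 2, while Akr1c20 and Akr1c21 were at the floor in both. Members of this family are close copies: the counts of Akr1c12 and Akr1c13 were fractional, so reads were divided between genes, whereas Akr1c18 had whole expected counts.

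Receptors for the hormones these enzymes handle were present, with 4 of 5 above 1 TPM in both. Pgr, the progesterone receptor, had 11.3 TPM in replicate 1 and 44.2 TPM in replicate 2, Esr1 22.9 TPM in replicate 1 and 29.6 TPM in replicate 2, and Gper1 1.95 TPM in replicate 1 and 2.68 TPM in replicate 2. Esr2 was at the floor. Pgr was higher in replicate 2 while Akr1c18, which inactivates its ligand, was higher in replicate 1, and luminal epithelial markers were also higher in replicate 2, at the sums given above, with their part in the Pgr difference not tested.

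**Figure D4:**
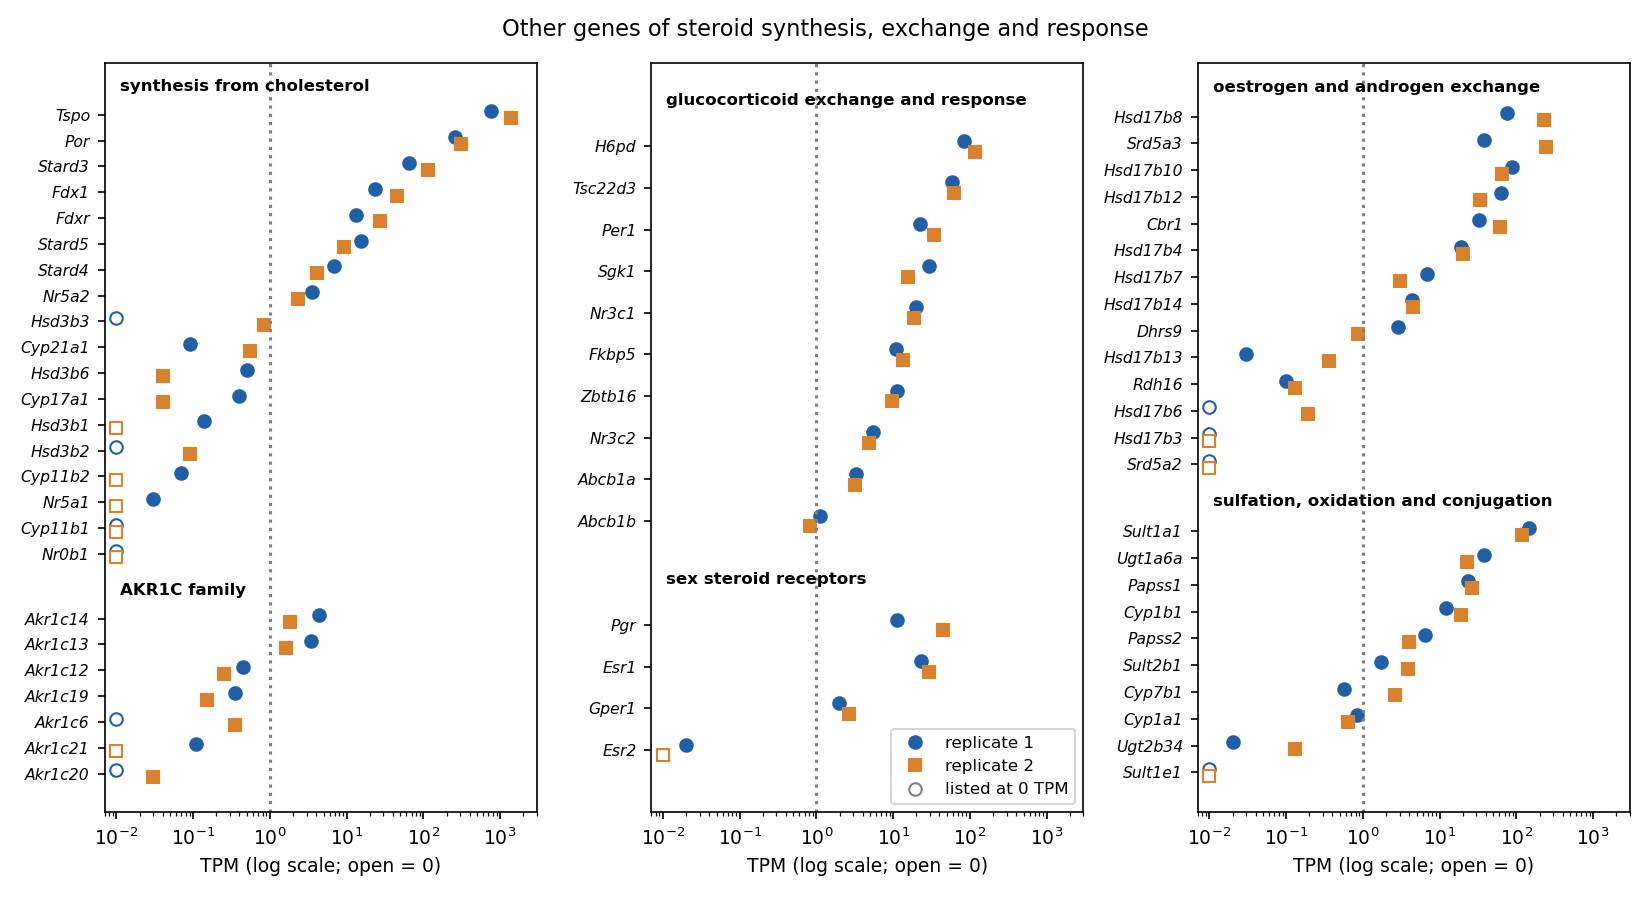
Level in TPM, on a log axis, of the pathway genes reported here by list, with replicate 1 as blue circles, replicate 2 as orange squares, open symbols for 0 TPM and a dotted line at 1 TPM. Counts over the full lists can include genes not drawn here. By those counts, 9 of 10 genes of the glucocorticoid list reached 1 TPM in both libraries. In synthesis from cholesterol 8 of 18 did, and in the AKR1C family 2 of 7.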

How the data were processed

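Per the file headers, the gene and transcript tables deposited by the authors hold expected counts, TPM, FPKM and posterior mean TPM. The transcript tables also hold, as deposited, each isoform's percent of its gene. Text notes beside the tables name mm10 and GENCODE M4; for the aligner, the quantifier and its use of strand the entry is "not given in the sources used here". Names, coordinates and exons are those of GENCODE M21, a later release for mm10, in which 18 of the 22 transcripts had the deposited length (not Akr1c18-201, Hsd11b2-201, Hsd17b2-201 or Star-201). Contigs and splice junctions, on mm9, were not used here. The genes, lists and tests were chosen with earlier results of these data known. All 10 genes were named, and of each pathway list up to 4 with the highest mean TPM and those with 3 fragments or fewer in both libraries. Some listed genes enter the counts but are not reported here by name.

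Count ratios used expected counts rounded to whole numbers, of which those of 8 of the 10 genes were whole as deposited, scaled by total gene counts without 97 spike-in entries. Fractional counts were those of Srd5a1 in both libraries and of Hsd11b1 in replicate 1, at 4804.51. A gene was beyond 2-fold where the 95% Clopper-Pearson interval lay wholly beyond it. Differences were of log2(TPM + 1), with a pseudocount of 1. With 1 group of 2 libraries no test was made and no p-value is given. Alternatives were other thresholds, units, pseudocounts and scalings, subtraction of the GC trend in 20 bins and each library left out. Scaling factors came from edgeR 4.0.16 and DESeq2 1.42.0 in R 4.3.3. Tables were handled with pandas 2.3.3 and numpy 2.4.6, intervals with scipy 1.17.1 and plots with matplotlib 3.10.9, all in Python 3.11.15.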

Additional observations from a re-analysis of the deposited data

How the results depend on the processing

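The count of 4 genes at 1 TPM in both libraries became 2 at a threshold of 5 TPM, and otherwise lay between 4 and 6 (4 without replicate 1 and 5 without replicate 2). The count of 1 gene beyond 2-fold became 0 under TMM, DESeq2 size factors and spike-in totals, and 3 with no filter. The pathway count of 38 ranged from 26 to 42, and from 39 to 40 with a library left out. Relative to total counts, log2 count ratios without a pseudocount were lowered by 0.07 under TMM, by 0.13 under DESeq2 size factors and by 0.76 under spike-in totals, and were raised by 0.17 with mitochondrial and muscle genes left out of the totals. Of 9 other settings, Akr1c18, Hsd17b1 and Hsd17b2 kept the sign of their difference in 9, Hsd11b1, Cyp11a1, Hsd11b2 and Star in 8, Hsd17b11 in 7 and Srd5a1 in 6; the cause was not tested. Leaving out a library leaves no difference to compute. No paired analysis was possible because there is 1 group. Depth limits Hsd17b2, Hsd17b1, Star and Hsd11b2, each with 52 fragments or fewer per library.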

Other observations

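Enzymes of the synthesis steps after Cyp11a1 gave few fragments. These genes were named after their values were seen. Cyp17a1, the enzyme on the way to androgens, had 27 fragments in replicate 1 and 2 in replicate 2, and Hsd3b6, an Hsd3b relative that makes progesterone-type steroids, had 0.51 TPM in replicate 1 and 0.04 TPM in replicate 2. Hsd3b3 went the other way, with 0 expected counts in replicate 1 and 33.0 in replicate 2, and Hsd3b1 had 4 in replicate 1 and 0 in replicate 2. Cyp21a1, needed for all corticosteroids, had 0.09 TPM in replicate 1 and 0.55 TPM in replicate 2, and Cyp11b2 had 4 fragments in replicate 1 and 0 in replicate 2. None of the 6 reached 1 TPM in either library.

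Of 11 markers of steroid-making adrenal and gonad cells, 3 passed 1 TPM in both libraries. They were Insl3, a peptide hormone of Leydig cells, with 33.7 TPM in replicate 1 and 84.1 TPM in replicate 2, the corticotropin receptor Mc2r with 10.5 TPM in replicate 1 and 6.90 TPM in replicate 2, and the inhibin subunit Inha with 7.55 TPM in replicate 1 and 15.8 TPM in replicate 2. Mc2r is also known from mouse fat cells. The expected counts of Insl3 were fractional, at 599.34 in replicate 1 and 1056.88 in replicate 2, so its reads were divided between genes. Overlaps with other genes were not looked for around these markers. The other 8 were under 1 TPM in both, and Nr5a1, Cyp11b1 and Fshr were at the floor.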
